A study of Mus musculus with 6 samples.

Results

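The mouse genes examined were 29 genes that encode ionotropic and metabotropic glutamate receptors and the vesicular and plasma membrane transporters of glutamate. They were chosen by symbol, and each of the 29 was present once among the 32285 genes of all 6 count matrices. Single-nucleus RNA libraries had been made from frontal lobe tissue, 1 library for each of 6 Tg-SwDI mice, with 3 SwDI/TKO mice, in which Trem2 is knocked out, and 3 SwDI/TWT mice, which are wild type for Trem2. Both groups carry the Tg-SwDI transgene, a human amyloid precursor protein gene with the Swedish, Dutch and Iowa mutations that is driven by the neuronal Thy1 promoter, as background on this line. No mice without the transgene were among the samples, and the labels used here give neither the age nor the sex of the mice, nor the deleted part of Trem2. The study set the genotypes side by side to ask what losing Trem2 does to gene expression in this amyloid model.

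Glutamate is the main excitatory transmitter of the forebrain. Neurons load it into vesicles with the vesicular transporters, and astrocytes clear it from the synaptic cleft with the plasma membrane transporters. AMPA, kainate and NMDA receptors are ion channels assembled from several subunits, delta receptors organise synapses, and metabotropic receptors signal through G proteins, on either side of the synapse. Oligodendrocyte precursors also carry AMPA and NMDA receptor subunits and receive synaptic contacts from neurons.

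The library numbered here as TKO replicate 1 stood apart from the others before any comparison. Its matrix header names Cell Ranger 7.0.0 and the other 5 headers name 6.1.2, and it held 51317961 UMIs (unique molecular identifiers, one per captured transcript), against 11493087 to 17835287 in each other library. It was therefore left out of the main comparisons, and its level is given beside those of the other libraries. It departed from them by a different amount for each gene, as described below. Where all 3 TKO libraries are said to lie on 1 side, it is thus not counted as a further replicate. After filtering, 33008 of 39752 barcodes were kept as nuclei, and 77.5% of them fell into classes named by marker genes that held none of the 29 genes. The classes used here were excitatory neuron-like (8617 nuclei), inhibitory neuron-like (3337), striatal projection neuron-like (4926), microglia-like (1422), astrocyte-like (1201), oligodendrocyte precursor-like (917) and oligodendrocyte-like (4764), and they are called by the plain class names from here on. The other named nuclei were border macrophages, fibroblasts, mural and endothelial cells, which are not described. Any 2 libraries shared 5 to 14 barcodes. Trem2 in microglia stood at 341, 770 and 501 normalized CPM (UMIs per 1000000 of the library's effective size for the class, after TMM scaling) in TKO replicates 1, 2 and 3, against 2022, 1684 and 988 in TWT replicates 1, 2 and 3. It was lower in every TKO library than in any TWT library, but it was not at 0 in the knockouts.

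There were 4 members with levels that set a single class far apart from the rest, and the RefSeq promoter windows of these genes, the 250 bases before each start site, were read from build GRCm38.p6. They are shown because the class pattern of these genes was the plainest in the data. The capitals mark TTGGC on either strand, the half-site named for nuclear factor I. The windows are those of Slc17a7 at chr7:45163671-45163920 (plus strand), Slc1a2 at chr2:102706188-102706437 (plus strand), Slc1a3 at chr15:8710808-8711057 (minus strand) and Grin2c at chr11:115267244-115267493 (minus strand), each written 5′ to 3′.
Slc17a7: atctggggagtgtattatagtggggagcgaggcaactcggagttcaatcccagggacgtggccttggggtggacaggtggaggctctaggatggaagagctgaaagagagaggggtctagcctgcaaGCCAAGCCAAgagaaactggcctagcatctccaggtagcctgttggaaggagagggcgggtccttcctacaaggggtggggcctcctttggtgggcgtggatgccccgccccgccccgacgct
Slc1a2: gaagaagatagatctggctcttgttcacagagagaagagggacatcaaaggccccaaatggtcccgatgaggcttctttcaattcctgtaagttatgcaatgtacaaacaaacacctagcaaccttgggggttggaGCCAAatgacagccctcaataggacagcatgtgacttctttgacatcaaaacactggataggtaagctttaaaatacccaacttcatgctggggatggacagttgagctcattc
Slc1a3: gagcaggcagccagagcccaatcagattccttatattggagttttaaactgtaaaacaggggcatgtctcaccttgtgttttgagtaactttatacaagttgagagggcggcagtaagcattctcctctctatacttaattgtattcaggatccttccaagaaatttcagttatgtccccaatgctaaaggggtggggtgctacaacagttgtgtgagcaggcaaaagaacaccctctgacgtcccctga
Grin2c: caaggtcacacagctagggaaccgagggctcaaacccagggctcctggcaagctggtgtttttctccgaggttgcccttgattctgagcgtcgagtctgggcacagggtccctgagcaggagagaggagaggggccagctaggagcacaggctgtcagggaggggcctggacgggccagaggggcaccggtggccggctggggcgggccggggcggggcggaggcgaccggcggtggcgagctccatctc
The half-site occurred 2 times in the Slc17a7 window and 1 time in the Slc1a2 window, and these letters were not in the Slc1a3 or Grin2c windows. It occurred in 41.5% of 32851 promoter windows of the same length. The E-box sequences CAGATG, in 14.4% of all windows, and CAGCTG, in 13%, were in none of these 4 windows, each searched on both strands. The Slc1a2 window lies inside the gene as the GENCODE M21 annotation draws it (chromosome 2, 102658659 to 102790784), because other transcripts of the gene begin upstream. Of the 29 genes, 20 had a window in the RefSeq table, and those without an entry were Gria1, Gria3, Grik1, Grin2a, Grin2b, Grin3a, Grid1, Grm4 and Grm5.

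Across classes, the genes of glutamate packaging and of glutamate clearance were highest in different classes. Levels below are normalized CPM, with UMIs summed over the nuclei of a class in a library, given as mean ± SD over the 5 libraries without TKO replicate 1 (n = 5). They are compared between classes for 1 gene at a time. The classes were not tested against each other, and a difference is called clear where the ranges over the 5 libraries do not overlap.

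Slc17a7, the vesicular transporter of cortical excitatory neurons, stood at 702 and 989 CPM in excitatory neurons of TKO replicates 2 and 3, against 816, 896 and 995 in TWT replicates 1, 2 and 3, with 428 in TKO replicate 1. The other 5 libraries overlapped between genotypes, and TKO replicate 1 lay below all of them. The mean of 880 ± 123 CPM was clear of the 102 ± 23.7 CPM of microglia, the next class. Slc17a7 UMIs were found in 85.0 to 93.1% of excitatory nuclei and in 7.11 to 8.86% of striatal projection neurons, a GABA-releasing class that should lack it, at median depths of 2649 to 3749 and 2418 to 3035 UMIs. With each nucleus thinned to 1000 UMIs, which kept 904 to 1727 excitatory nuclei and 550 to 1204 striatal projection nuclei per library, the shares were 52.8 to 63.8% and 2.48 to 3.99%. In microglia the unthinned share was 4.96 to 8.21% at median depths of 676 to 734 UMIs, and whether these reads come from the microglia was not tested. Slc17a6, the vesicular transporter of subcortical excitatory neurons, was highest in excitatory neurons at 10.5 ± 2.57 CPM, with overlapping classes. Slc17a8, the vesicular transporter found in scattered neuron types, reached 3.61 CPM at most as a class mean.

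Slc1a2, which encodes GLT-1, the main glutamate uptake transporter of forebrain astrocytes, stood at 4358 and 5099 CPM in astrocytes of TKO replicates 2 and 3, against 4700, 6302 and 5560 in TWT replicates 1, 2 and 3, with 8934 in TKO replicate 1. The genotypes overlapped, and TKO replicate 1 was above every other library. The astrocyte mean of 5204 ± 761 CPM was clear of 470 ± 126 CPM in oligodendrocyte precursors, the next class. Its UMIs were in 75.9 to 98.8% of astrocytes and in 9.03 to 12.9% of striatal projection neurons. Slc1a3, which encodes GLAST, the other astrocyte uptake transporter, averaged 2426 ± 777 CPM in astrocytes and 402 ± 116 CPM in microglia, the next class. Slc1a3 UMIs were in 14.2 to 25.6% of microglia but in 1.60 to 2.39% of excitatory neurons, although the excitatory nuclei were the deeper ones (microglia had median depths of 676 to 734 UMIs). Slc1a1, which encodes EAAC1, the uptake transporter of neurons, was highest in oligodendrocyte precursors at 408 ± 55.3 CPM, clear of 141 ± 10.4 CPM in inhibitory neurons.

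**Figure D1:**
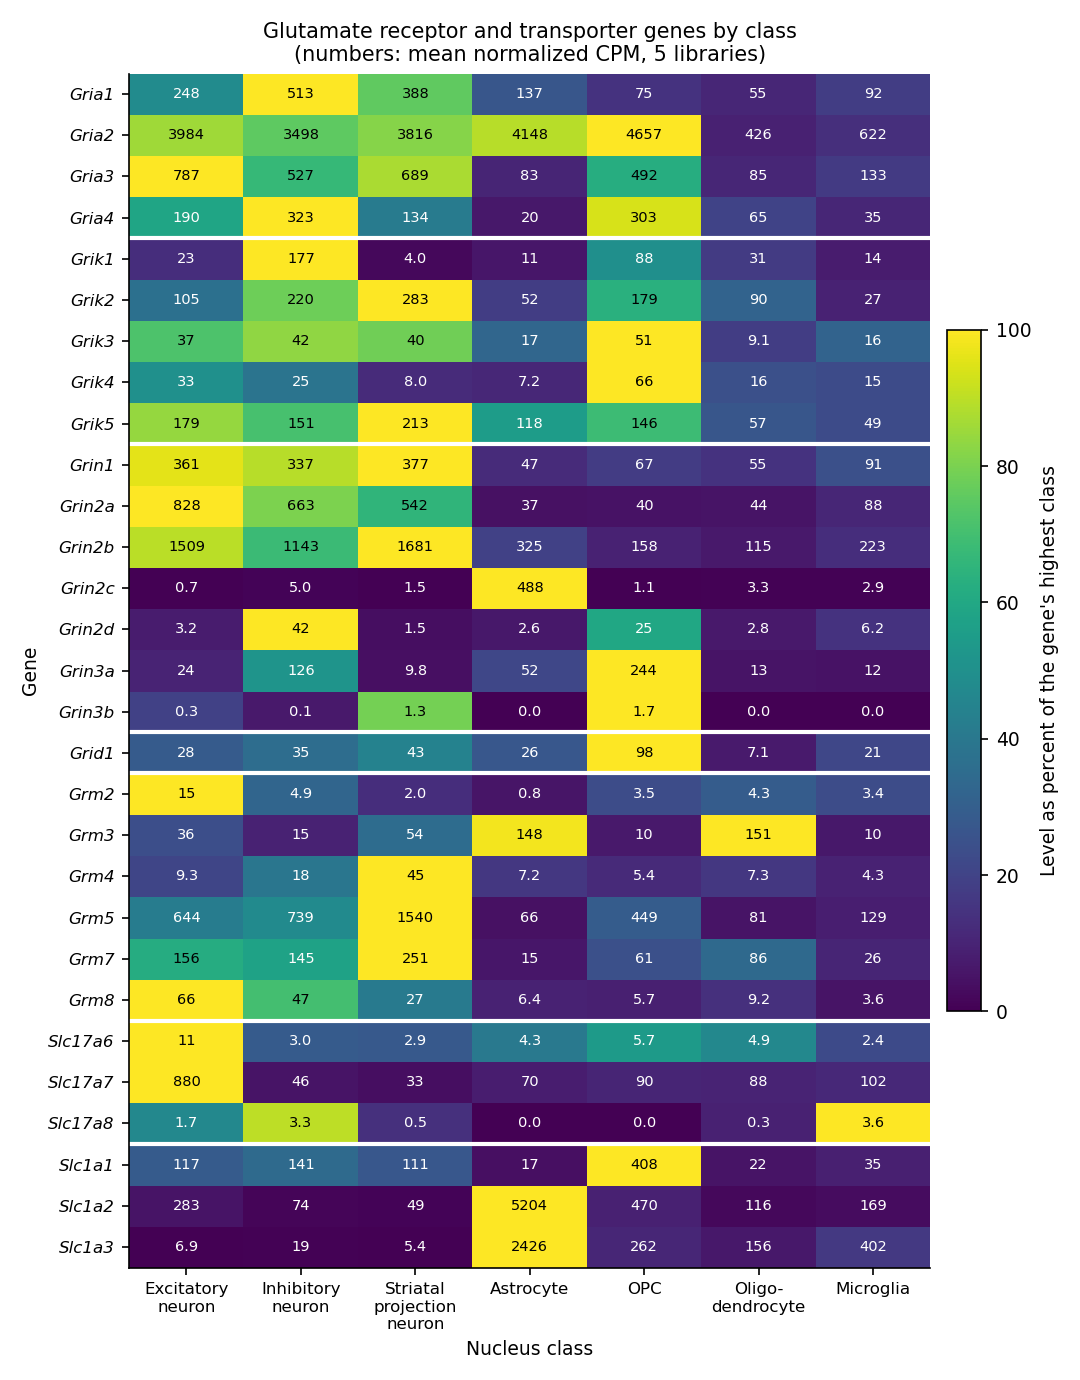
Levels of the 29 genes by cell class. Rows are genes by family, columns are the 7 classes, and colour is the gene's mean normalized CPM over 5 libraries (TKO replicate 1 left out) as a percent of its value in its highest class. Slc1a2, Slc1a3 and Grin2c are filled almost only in the astrocyte column and Slc17a7 in the excitatory neuron column, while Gria2 is filled in several.

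Among AMPA receptor subunits, Gria2, whose subunit makes the channel nearly impermeable to calcium, was the broadest. In oligodendrocyte precursors it stood at 5460 and 4219 CPM in TKO replicates 2 and 3, against 4235, 4514 and 4854 in TWT replicates 1, 2 and 3, with 3024 in TKO replicate 1. The genotypes overlapped here too. Its mean of 4657 ± 518 CPM in precursors and 4148 ± 752 CPM in astrocytes overlapped in range, and oligodendrocytes were lowest at 426 CPM. Gria1, a subunit that is moved into synapses with activity, was highest in inhibitory neurons at 513 ± 45.7 CPM, clear of 388 ± 46.7 CPM in striatal projection neurons. The inhibitory class included a cluster led by Foxp2 and Tshz1, 24.2 to 64.1% of the class in these 5 libraries. Its top 10 genes held Erbb4 and Dlx6os1 of the inhibitory marker list and Tac1 of the striatal list, and the 2 classes are not fully separate. Gria3 (787 ± 68.6 CPM in excitatory neurons) and Gria4, a subunit of fast-firing interneurons (323 ± 37.0 CPM in inhibitory neurons), overlapped with the next class.

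Kainate receptor genes split by class. Grik1 was highest in inhibitory neurons at 177 ± 48.6 CPM, clear of 87.7 ± 28.0 CPM in oligodendrocyte precursors. Grik2, a pore-forming subunit, was highest in striatal projection neurons, at 307 and 273 CPM in TKO replicates 2 and 3, against 240, 262 and 332 in TWT replicates 1, 2 and 3, with 2858 in TKO replicate 1. The genotypes overlapped among the 5 libraries, and TKO replicate 1 was far above them. The third pore-forming subunit gene, Grik3, and the genes of the auxiliary-type subunits, Grik4 and Grik5, had their highest means at 50.7 ± 9.33 CPM (precursors), 66 ± 7.49 CPM (precursors) and 213 ± 50.9 CPM (striatal projection neurons), each overlapping the next class.

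NMDA receptor genes were mostly shared among neurons. Grin1, the obligatory subunit, averaged 377 ± 70.2 CPM in striatal projection neurons and 361 ± 58.3 CPM in excitatory neurons, with overlapping ranges. Grin2b, a subunit that prolongs the current, stood at 1746 and 1493 CPM in striatal projection neurons of TKO replicates 2 and 3, against 1838, 1674 and 1653 in TWT replicates 1, 2 and 3, with 2506 in TKO replicate 1. The genotypes overlapped, and so did the classes (1681 ± 127 CPM here and 1509 ± 132 CPM in excitatory neurons). Grin2a, the subunit that replaces much of Grin2b during maturation, averaged 828 ± 148 CPM in excitatory and 663 ± 122 CPM in inhibitory neurons.

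The remaining NMDA genes had narrower patterns. Grin2c averaged 488 ± 86.0 CPM in astrocytes and 5.01 ± 1.49 CPM in inhibitory neurons, the next class. Its UMIs were in 26.4 to 44.7% of astrocytes and in at most 0.421% of excitatory neurons. Grin3a, a subunit that lowers calcium entry, was highest in oligodendrocyte precursors at 244 ± 40.9 CPM, clear of 126 ± 30.3 CPM in inhibitory neurons. Grin2d, a subunit of interneurons, averaged 42.2 ± 13.5 CPM in inhibitory neurons and overlapped with precursors, and Grin3b, the motor neuron subunit, had 1.66 CPM or less in every class.

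Grid1, a delta receptor that binds cerebellins, was highest in oligodendrocyte precursors, at 91.1 and 91.0 CPM in TKO replicates 2 and 3, against 131, 81.9 and 92.9 in TWT replicates 1, 2 and 3, with 1490 in TKO replicate 1. Genotypes overlapped among the 5 libraries. The mean of 97.6 ± 19.2 CPM was clear of 43.3 ± 3.28 CPM in striatal projection neurons.

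Of the metabotropic receptors, 3 were highest in striatal projection neurons and clear of the next class. Grm5, the postsynaptic receptor coupled to calcium release, stood there at 1656 and 1480 CPM in TKO replicates 2 and 3, against 1584, 1564 and 1417 in TWT replicates 1, 2 and 3, with 4826 in TKO replicate 1. Genotypes overlapped among the 5 libraries, whose mean was 1540 ± 93.0 CPM, against 739 ± 113 CPM in inhibitory neurons. Grm7 and Grm4, presynaptic receptors that lower transmitter release, averaged 251 ± 18.4 and 44.5 ± 6.38 CPM in striatal projection neurons. Grm2, a presynaptic autoreceptor, was highest in excitatory neurons at 14.9 ± 5.09 CPM. Grm3, a receptor that also occurs on glia, was as high in oligodendrocytes (151 ± 12.4 CPM) as in astrocytes (148 ± 38.4 CPM) within its spread, and Grm8, another presynaptic receptor, was highest in excitatory neurons (66.3 ± 20.4 CPM), with overlap. The 13 genes with a clear highest class, Slc17a7, Slc1a2, Slc1a3, Slc1a1, Gria1, Grik1, Grin2c, Grin3a, Grid1, Grm2, Grm4, Grm5 and Grm7, were higher in the first class than in the second in all 6 libraries.

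Between genotypes, no member passed an adjusted p of 0.05 in any class (edgeR quasi-likelihood test, Benjamini-Hochberg adjustment over all genes tested, TKO replicates 2 and 3 against TWT replicates 1, 2 and 3). The members called were 0 of 26 tested in excitatory neurons, where 0% of all genes tested were called, 0 of 24 in inhibitory neurons (0% of all genes), 0 of 24 in striatal projection neurons (0%) and 0 of 14 in astrocytes (0%). They were 0 of 18 in oligodendrocytes (0.0125% of all genes), 0 of 14 in oligodendrocyte precursors (0.143%), 0 of 11 in microglia (0.0902%) and 0 of 28 over all nuclei (0%). DESeq2 also called 0 members in each, with 0.00737% of all genes called in excitatory neurons, 0.00821% in striatal projection neurons, 0.0125% in oligodendrocytes, 0.0286% in precursors, 0.0478% over all nuclei and 0% in the other 3 classes. At an unadjusted p under 0.05, the edgeR counts in the same order of classes were 2 members (2.81% of all genes), 1 (3.02%), 2 (3.28%), 2 (4.41%), 1 (2.69%), 0 (4.63%), 5 (5.64%) and 3 (3.33%). Standard errors of the members' log2 fold changes ran from 0.17 to 0.50 in excitatory neurons and from 0.28 to 0.77 in microglia, so small changes were not detectable. Members that passed the filter on low counts are the ones tested here, and Grin3b passed in no class.

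In excitatory neurons 13 of 26 tested members had positive and 13 negative log2 fold changes (TKO over TWT), with a median of -0.0032, against 0.02 over all genes tested. Kainate receptor genes were positive in 5 of 5 (median 0.21) and AMPA receptor genes in 3 of 4 (0.13). NMDA receptor genes were positive in 1 of 5 (median -0.12) and plasma membrane transporters in 0 of 3 (-0.22). The same transporters were negative in every one tested in inhibitory neurons, striatal projection neurons, astrocytes, oligodendrocytes and microglia, and positive in 3 of 3 in oligodendrocyte precursors. In astrocytes and in microglia 2 were tested. All classes come from the same libraries, so they are not separate results. With TKO replicate 1, 2 of 3 were positive in excitatory neurons, 1 of 3 in striatal projection neurons and 1 of 2 in astrocytes. It was then 0 of 3 in inhibitory neurons and in oligodendrocytes, and 0 of 2 in microglia.

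Grin2a (chromosome 16, 9567898 to 9995560, minus strand, mm10) was the member with the smallest p in excitatory neurons. It stood at 658 and 685 CPM there in TKO replicates 2 and 3, against 968, 959 and 870 in TWT replicates 1, 2 and 3, and at 2489 CPM in TKO replicate 1. The 2 TKO libraries counted by 6.1.2 lay below all 3 TWT libraries, and TKO replicate 1 lay above all of them. The log2 fold change was -0.47 ± 0.18 (SE) without TKO replicate 1 (unadjusted p = 0.0291, adjusted p = 1.0), and 0.45 ± 0.58 with it.

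Striatal projection neurons held 437 and 455 CPM of Grin2a in TKO replicates 2 and 3, against 528, 664 and 627 in TWT replicates 1, 2 and 3, with 1616 in TKO replicate 1. The groups did not overlap without TKO replicate 1, and the log2 fold change was -0.44 ± 0.19 (unadjusted p = 0.0425, adjusted p = 0.994), or 0.46 with it. In inhibitory neurons the values were 644 and 488 CPM in TKO replicates 2 and 3, against 720, 821 and 644 in TWT replicates 1, 2 and 3, so that TKO replicate 2 and TWT replicate 3 were level (log2 fold change -0.36 ± 0.22, unadjusted p = 0.125). TKO replicate 1 stood at 1734 CPM there, and the estimate with it was 0.39. Over all nuclei the TKO mean was 479 ± 8.99 CPM (SD, n = 2), against a TWT mean of 666 ± 46.6 CPM (SD, n = 3), with 1695 in TKO replicate 1. The log2 fold change was -0.48 ± 0.17 (unadjusted p = 0.0229, adjusted p = 0.999), or 0.41 with TKO replicate 1.

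Clusters differed in size between libraries. In TKO replicate 1, 92.5% of striatal projection neurons were in a cluster that held at most 0.0817% of the class in each other library. For oligodendrocytes 86.7% were in a cluster that held 1.77 to 3.72% elsewhere. The levels of TKO replicate 1 in these classes thus come mostly from clusters that were small in the other libraries. Excitatory clusters differed in size as well. The cluster led by Ndst4 and Abi3bp made up 3.7 and 52.5% of the class in TKO replicates 2 and 3, against 20.7, 21.8 and 46.2% in TWT replicates 1, 2 and 3, and another cluster held 66% of the class in TKO replicate 1, so Grin2a was also fitted within clusters. These fits leave out TKO replicate 1. The log2 fold change was -0.43 (unadjusted p = 0.0415) in the excitatory cluster led by C1ql3 and Cpne9, -0.50 (unadjusted p = 0.0601) in that led by Ndst4 and Abi3bp, and in that led by Ccn2 and Zfpm2 -0.71 (unadjusted p = 0.00420), all edgeR fits. It was -0.40 (unadjusted p = 0.218) in the inhibitory cluster led by Foxp2 and Tshz1, -0.71 (unadjusted p = 0.0301) in the Sst cluster and 0.03 (unadjusted p = 0.881) in the Vip cluster. Adjusted p was 0.9998, 0.704 and 0.999 in these excitatory clusters, in the order given, and 0.998, 0.997 and 0.999 in the inhibitory ones. The Ndst4 cluster held 44 nuclei of TKO replicate 2 and 480 of TKO replicate 3, and the Ccn2 cluster held 350 and 46. The Grin2a estimate was thus negative in each of these excitatory clusters and near 0 in the Vip cluster. The Grin2a to Grin2b ratio of UMIs in excitatory neurons was 0.491 and 0.449 in TKO replicates 2 and 3, against 0.592, 0.679 and 0.532 in TWT replicates 1, 2 and 3, and 0.888 in TKO replicate 1. This ratio sets 2 subunits within 1 library side by side. It uses the same Grin2a UMIs as the levels above, so it is not separate evidence. Without TKO replicate 1 its groups did not overlap. They did overlap in inhibitory neurons, with 0.627 and 0.427 in TKO replicates 2 and 3, against 0.584, 0.746 and 0.532 in TWT replicates 1, 2 and 3. They also overlapped in striatal projection neurons, with 0.250 and 0.305 in TKO, against 0.288, 0.397 and 0.379 in TWT, from the same libraries. TKO replicate 1 had the ratios 0.847 in inhibitory and 0.645 in striatal projection neurons.

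**Figure D2:**
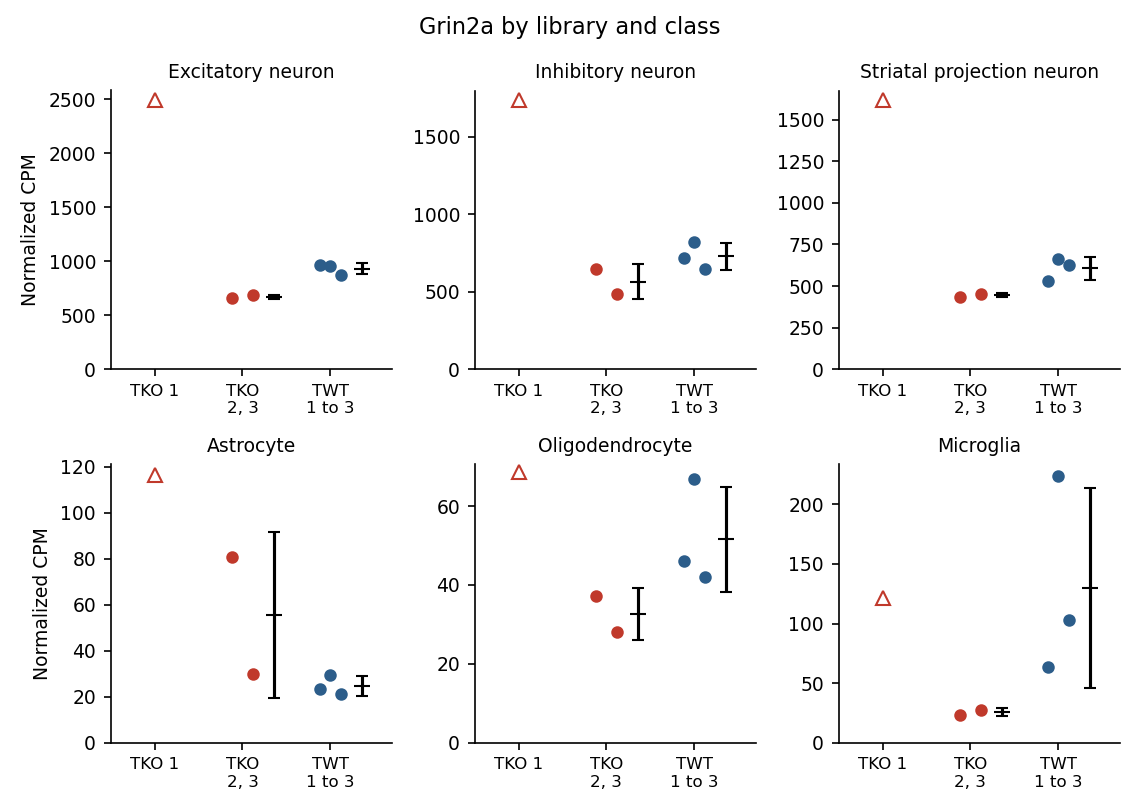
Grin2a level in each library, by class. The vertical axis is normalized CPM, filled points are TKO replicates 2 and 3 and TWT replicates 1 to 3, the open triangle is TKO replicate 1, and bars are the mean ± SD of the filled points. In excitatory neurons the filled TKO points are at 658 and 685 CPM and the TWT points between 870 and 968.

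Of all members counted in excitatory neurons, 5 of 28 had groups that did not overlap, against 18.1% of all genes, and these were Grin2d and Gria3 (TKO higher) and Slc1a3, Grin2a and Slc1a1 (TKO lower). The share among the members was near that among all genes. With all 6 libraries it was 3 of 28, against 9.88% of all genes. Without TKO replicate 1 it was 5 of 28 in inhibitory neurons (18.1% of all genes), with Grm3 and Slc17a8 higher in TKO and Slc1a2, Grm8 and Grin2a lower (Grin2a apart only before rounding). In striatal projection neurons it was 7 of 28 (18.2%), with Grm3, Grm7, Gria1 and Grid1 higher in TKO and Slc1a2, Slc17a7 and Grin2a lower. Slc1a3 in excitatory neurons was at 4.50 and 5.11 CPM in TKO replicates 2 and 3, against 8.02, 8.99 and 8.04 in TWT replicates 1, 2 and 3, with 7.33 in TKO replicate 1. All 3 TKO libraries lay below the TWT libraries (log2 fold change -0.80 ± 0.31, unadjusted p = 0.0356), at a level where few nuclei had a UMI. Grik3 was at 56.3 and 31.1 CPM in TKO replicates 2 and 3, against 35.2, 32.6 and 27.2 in TWT replicates 1, 2 and 3, so the groups overlapped (0.47 ± 0.28, unadjusted p = 0.135). TKO replicate 1 had 268 CPM of Grik3, and the estimate with it was 1.91.

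Grm3 led in both other neuron classes. In striatal projection neurons it was at 69.6 and 64.3 CPM in TKO replicates 2 and 3, against 54.3, 41.5 and 37.8 in TWT replicates 1, 2 and 3, with 648 in TKO replicate 1. TKO replicates 2 and 3 were above every TWT library. TKO replicate 1 was as well, but its Grm3 was also far above the other libraries in excitatory neurons, where the genotypes overlapped without it. The log2 fold change in striatal projection neurons was 0.60 ± 0.22 (edgeR, unadjusted p = 0.0214, adjusted p = 0.994), or 2.55 with TKO replicate 1. Inhibitory neurons had 18.0 and 20.6 CPM in TKO replicates 2 and 3, against 11.4, 13.1 and 9.85 in TWT replicates 1, 2 and 3, with 188 in TKO replicate 1. The groups were apart there as well (0.77 ± 0.34, unadjusted p = 0.0454, or 2.75 with TKO replicate 1). The cluster led by Foxp2 and Tshz1 made up 32.8 and 64.1% of inhibitory neurons in TKO replicates 2 and 3. In TWT replicates 1, 2 and 3 its shares were 48.8, 24.2 and 48.0%, with 36.0% in TKO replicate 1. Within it, without TKO replicate 1, Grm3 had a log2 fold change of 1.08 ± 0.56 (edgeR, unadjusted p = 0.0784, adjusted p = 0.998). Grm3 was not tested in the Sst or Vip cluster, and the part of these shares was not tested. In excitatory neurons Grm3 overlapped between genotypes (log2 fold change -0.15, or 2.17 with TKO replicate 1), and the test of the difference between excitatory and inhibitory neurons gave -1.04 ± 0.43 (unadjusted p = 0.0342, adjusted p = 1.0). That test called 0 of 28 members (0% of all genes), with 1 at an unadjusted p under 0.05 (2.77%), and 3 with all 6 libraries (3.57%).

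Grm8 in inhibitory neurons was at 31.2 and 40.1 CPM in TKO replicates 2 and 3, against 46.7, 41.5 and 73.6 in TWT replicates 1, 2 and 3 (log2 fold change -0.60 ± 0.30, unadjusted p = 0.0673), with 632 in TKO replicate 1. Without that library the groups did not overlap, and with it the estimate was 2.12. Slc17a7 there was at 37.8 and 34.0 CPM in TKO replicates 2 and 3, against 72.7, 51.7 and 35.3 in TWT replicates 1, 2 and 3, with 30.2 in TKO replicate 1 (-0.54, unadjusted p = 0.104). Its UMIs were in 6.05 to 10.2% of inhibitory nuclei, near the share in striatal projection neurons given above. In striatal projection neurons Slc1a2 was at 39.0 and 42.4 CPM in TKO replicates 2 and 3, against 59.8, 55.6 and 48.5 in TWT replicates 1, 2 and 3 (-0.42 ± 0.21, unadjusted p = 0.0727), with 38.0 in TKO replicate 1. All 3 TKO libraries lay below the TWT libraries.

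**Figure D3:**
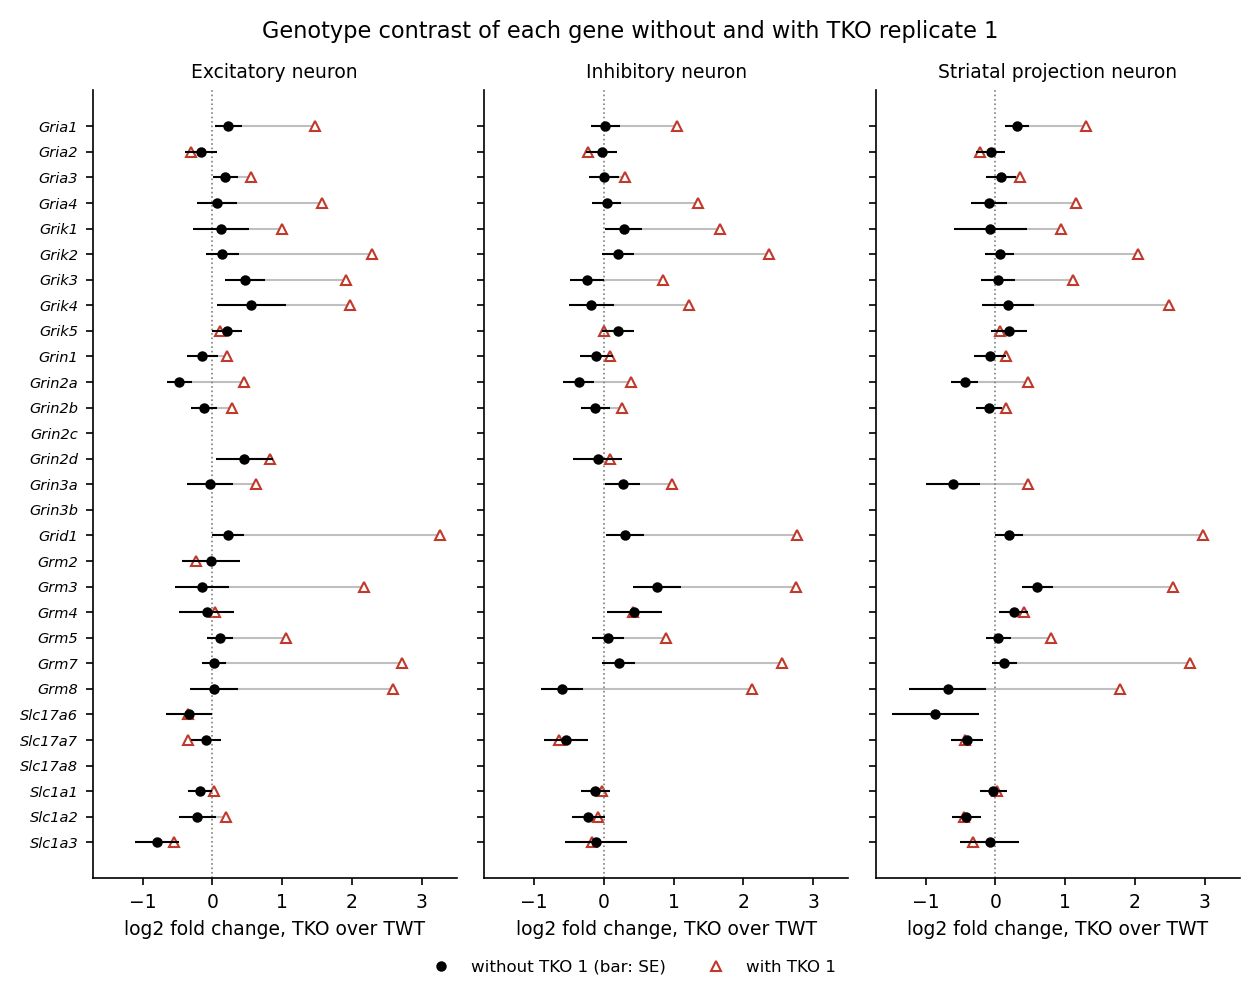
Log2 fold changes (TKO over TWT) of the tested members in excitatory, inhibitory and striatal projection neurons. Black dots with bars are estimates ± SE from the 5 libraries without TKO replicate 1, and open red triangles are estimates from all 6 libraries. The dots lie around 0 in each class, with medians from -0.05 to -0.0032, and most triangles lie to the right.

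Astrocytes held fewer nuclei, 87 to 235 per library, and 14 members could be tested. Gria1 stood at 234 and 174 CPM in TKO replicates 2 and 3, against 82.3, 127 and 68.8 in TWT replicates 1, 2 and 3, with 550 in TKO replicate 1. TKO replicates 2 and 3 were above the TWT libraries. TKO replicate 1 was as well, with a log2 ratio of 1.97 to the mean of the other 5 libraries (5 CPM added to both). That ratio was 2.47 for Gria1 in excitatory neurons, where the genotypes overlapped without this library. The TKO mean of 204 ± 42.2 CPM (SD, n = 2) and the TWT mean of 92.6 ± 30.3 CPM (SD, n = 3) gave a log2 fold change of 1.10 ± 0.35 (unadjusted p = 0.00511, adjusted p = 0.999), and it was between 0.87 and 1.41 when any 1 of the 5 libraries was left out. With TKO replicate 1 the log2 fold change was 1.81. Among the other 5 libraries only the normalized levels, not the Gria1 UMI counts, were apart. Astrocytes held 121460 and 174159 UMIs of all genes in TKO replicates 2 and 3, against 301396, 273054 and 246698 in TWT replicates 1, 2 and 3. Gria1 UMIs were in 7.56 to 18.4% of astrocytes in these 5 libraries.

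An astrocyte cluster led by Sash1 and Fabp7 made up 19.5% of the class in TKO replicate 2 and 12.3% in TWT replicate 1, and none of it in TKO replicate 3 or the other 2 TWT libraries. Within the larger astrocyte cluster alone, Gria1 had a log2 fold change of 1.15 (unadjusted p = 0.00306). Markers of the 3 neuron classes together took 0.161 and 0.231% of astrocyte UMIs in TKO replicates 2 and 3, against 0.230, 0.234 and 0.238% in TWT replicates 1, 2 and 3, with 0.280% in TKO replicate 1. In the same order, the excitatory list alone took 0.102 and 0.153%, against 0.134, 0.170 and 0.182%, with 0.172% in TKO replicate 1. Of excitatory neuron UMIs that list took 0.126 and 0.148%, against 0.130, 0.136 and 0.101%, with 0.124% in TKO replicate 1. It thus did not set astrocytes apart from excitatory neurons, and the sum does not measure neuron RNA in astrocytes. Inhibitory neuron markers alone took 0.0239 and 0.0304% in TKO replicates 2 and 3, against 0.0236, 0.0231 and 0.0154% in TWT replicates 1, 2 and 3, with 0.0644% in TKO replicate 1. The inhibitory markers were thus higher in every TKO library than in any TWT library, and their part in the Gria1 difference was not tested. In oligodendrocyte precursors too few Gria1 UMIs were found for a test on their own. The test of the difference between astrocytes and precursors gave 1.44 ± 0.55 for Gria1 (unadjusted p = 0.00875, adjusted p = 0.786), or 1.67 with TKO replicate 1, and it called 0 of 20 members (0.0795% of all genes), with 3 at an unadjusted p under 0.05 (5.09%). The others were Grin2a (2.96 ± 1.10) and Slc1a3 (-0.77 ± 0.32). Grin2a averaged 40.2 ± 46.7 CPM in precursors (0 to 114) and 37.0 ± 24.8 CPM in astrocytes (21.2 to 80.9). Its UMIs were in 0 to 7.96% of precursors and in 1.74 to 5.75% of astrocytes, so the Grin2a estimate rests on few counts.

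Slc1a3 in astrocytes was at 1536 and 2219 CPM in TKO replicates 2 and 3, against 2859, 1992 and 3524 in TWT replicates 1, 2 and 3, with 3168 in TKO replicate 1. The groups overlapped, since TWT replicate 2 lay below TKO replicate 3. The log2 fold change was -0.57 ± 0.26 (unadjusted p = 0.0441, adjusted p = 0.999), and -0.26 with TKO replicate 1. Slc1a2, with the values given above, had -0.22 ± 0.22, and 0.16 with TKO replicate 1. Grin3a was at 98.8 and 54.0 CPM in TKO replicates 2 and 3, against 27.4, 38.0 and 42.3 in TWT replicates 1, 2 and 3. Its level in TKO replicate 1 was 90.0 CPM. The log2 fold change without that library was 1.04 ± 0.52 (edgeR, unadjusted p = 0.0596), and the groups did not overlap. Only the normalized levels, not the UMI counts, were apart, and Grin3a UMIs were in 2.98 to 11.5% of astrocytes. In all, 4 of 21 members had groups that did not overlap in astrocytes, against 20.7% of all genes, with Grin3a, Gria1 and Grin2a higher in TKO and Grm3 lower.

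**Figure D4:**
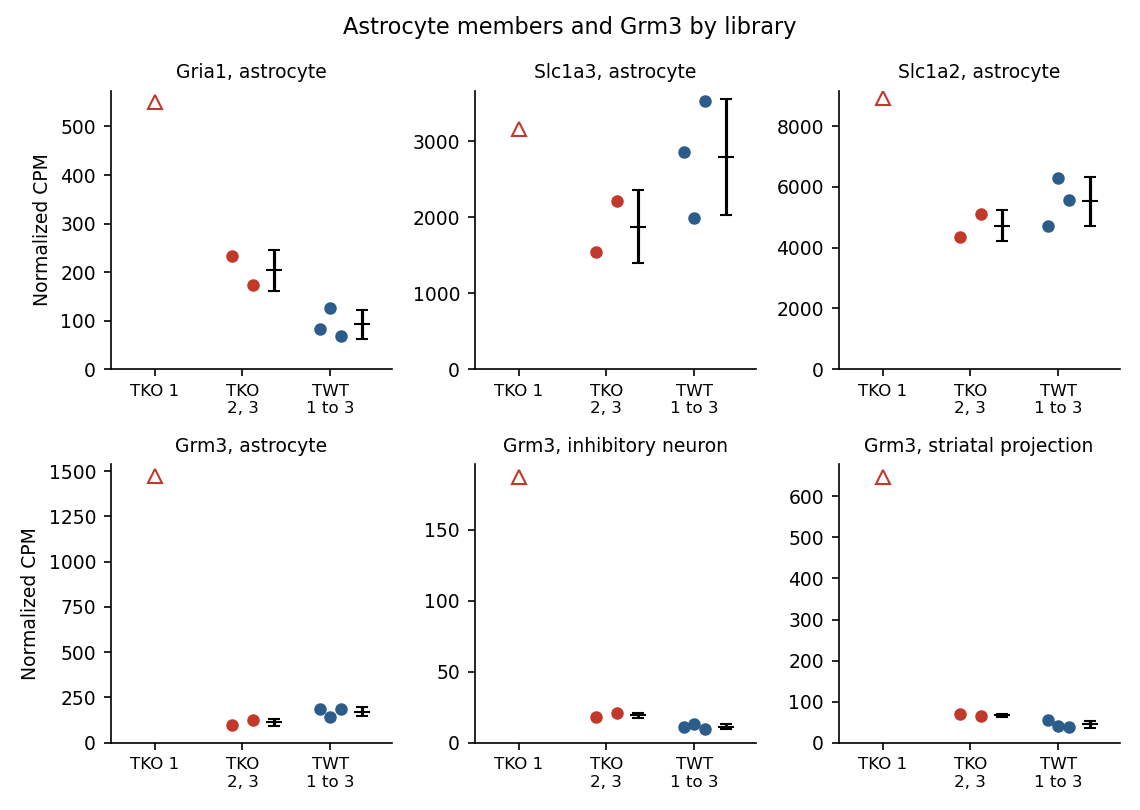
Levels of 4 members in each library. Panels give Gria1, Slc1a3, Slc1a2 and Grm3 in astrocytes and Grm3 in inhibitory and striatal projection neurons, in normalized CPM, with TKO replicate 1 as an open triangle, the other libraries as filled points and bars at the mean ± SD of the filled points. Gria1 in astrocytes is at 174 CPM or more in every TKO library and at 127 CPM or less in every TWT library. Its UMI counts there overlapped between genotypes without TKO replicate 1.

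Oligodendrocytes had 9 of 26 members with groups that did not overlap, against 17.5% of all genes, with Grin1, Grin3a, Grik4, Grin2c and Grid1 higher in TKO and Slc17a7, Slc17a6, Slc1a3 and Grin2a lower. Slc17a7 was at 64.2 and 70.9 CPM in TKO replicates 2 and 3, against 90.2, 130 and 85.9 in TWT replicates 1, 2 and 3, with 85.6 in TKO replicate 1. All 3 TKO libraries were below the TWT libraries (log2 fold change -0.60 ± 0.28, unadjusted p = 0.0462), and 5.65 to 9.17% of oligodendrocytes had a UMI of this gene. Neuron markers took 0.0779 and 0.138% of oligodendrocyte UMIs in TKO replicates 2 and 3, against 0.0799, 0.109 and 0.0818% in TWT replicates 1, 2 and 3, with 0.190% in TKO replicate 1, and their part in this difference was not tested. Grik2 was at 149 and 77.5 CPM in TKO replicates 2 and 3, against 58.9, 72.1 and 93.2 in TWT replicates 1, 2 and 3, with 1097 in TKO replicate 1 (0.61 ± 0.30, unadjusted p = 0.0641, or 2.58 with TKO replicate 1), and the groups overlapped. Grin2a was at 37.3 and 28.0 CPM in TKO replicates 2 and 3, against 46.0, 66.8 and 42.0 in TWT replicates 1, 2 and 3, with 68.6 in TKO replicate 1. The groups did not overlap without TKO replicate 1 (-0.65 ± 0.34, unadjusted p = 0.0689), and they overlapped with it (-0.16).

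In oligodendrocyte precursors 2 of 21 members had groups that did not overlap, against 19.2% of all genes, Grin2d being higher and Grik3 lower in TKO. Slc1a2 was at 389 and 669 CPM in TKO replicates 2 and 3, against 367, 519 and 408 in TWT replicates 1, 2 and 3, with 571 in TKO replicate 1 (log2 fold change 0.32 ± 0.29). Grin2b was at 108 and 155 CPM, against 245, 127 and 157 in the TWT libraries, with 178 in TKO replicate 1 (-0.39 ± 0.37, or -0.24 with TKO replicate 1). Slc1a3 was at 257 and 311 CPM, against 148, 273 and 322, with 312 in TKO replicate 1 (0.19 ± 0.32). All 3 overlapped between genotypes. A cluster led by Gpr17 made up 25.0% of the class in TKO replicate 2 and 5.26% in TKO replicate 3, against 5.31, 1.49 and 0.637% in TWT replicates 1, 2 and 3, with 2.86% in TKO replicate 1.

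Microglia had the largest fold changes and the fewest counts. Grin2a had 4 and 5 UMIs in TKO replicates 2 and 3, against 7, 19 and 16 in TWT replicates 1, 2 and 3, that is 23.3 and 27.9 CPM, against 63.2, 224 and 103, and 43 UMIs (121 CPM) in TKO replicate 1. The 2 TKO libraries lay below the TWT libraries, and TKO replicate 1 lay among them. The log2 fold change was -2.22 ± 0.55 (unadjusted p = 0.000227, adjusted p = 0.168), between -2.56 and -1.71 when 1 library was left out, and -0.98 (unadjusted p = 0.14) with TKO replicate 1. Grin2a UMIs were in 1.60 to 5.95% of microglia, 2.36 to 4.37% of oligodendrocytes and 1.74 to 5.75% of astrocytes, with median depths of 676 to 734, 776 to 871 and 1154 to 1380 UMIs. Whether these few UMIs come from free RNA was not tested.

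Grin2b in microglia had 19 and 28 UMIs in TKO replicates 2 and 3, against 32, 25 and 41 in TWT replicates 1, 2 and 3, that is 111 and 156 CPM, against 289, 294 and 263, with 343 CPM in TKO replicate 1 (log2 fold change -1.06 ± 0.33, unadjusted p = 0.00221, adjusted p = 0.564, or -0.45 with TKO replicate 1). Only the normalized levels, not the UMI counts, were apart. Gria2 was at 373 and 485 CPM, against 578, 671 and 1001, with 433 in TKO replicate 1 (-0.82 ± 0.28, unadjusted p = 0.00529, adjusted p = 0.649), and all 3 TKO libraries were below the TWT libraries. Grik5 (-1.68, unadjusted p = 0.0343) had 5 and 2 UMIs in TKO replicates 2 and 3, against 5, 8 and 10 in TWT replicates 1, 2 and 3, with 12 UMIs in TKO replicate 1, and was not tested with that library. Slc1a2 was at 81.6 and 150 CPM, against 171, 294 and 148, with 208 in TKO replicate 1, and overlapped (-0.75, unadjusted p = 0.0490, or -0.44 with TKO replicate 1). Of 11 tested members, 2 were positive and 9 negative (median -0.37), and 4 of 17 had groups that did not overlap, against 19.6% of all genes. Neuron markers took 0.0707 and 0.163% of microglial UMIs in TKO replicates 2 and 3, against 0.0892, 0.134 and 0.0844% in TWT replicates 1, 2 and 3, with 0.0683% in TKO replicate 1, and 18 of 36 detected neuron markers were lower in TKO. These marker shares overlapped between genotypes, and their part in the members' difference was not tested.

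Over all nuclei, 6 of 29 members had groups that did not overlap, against 19.0% of all genes, with Gria1 higher in TKO and Slc1a2, Grin2b, Slc1a3, Grin2a and Slc1a1 lower. Slc1a3 was at 51.5 and 54.1 CPM in TKO replicates 2 and 3, against 116, 62.5 and 81.0 in TWT replicates 1, 2 and 3, with 104 in TKO replicate 1 (log2 fold change -0.71 ± 0.26, unadjusted p = 0.0272, adjusted p = 0.999, or -0.31 with TKO replicate 1). Slc1a2 was at 222 and 193 CPM, against 306, 308 and 244, with 472 in TKO replicate 1 (-0.47 ± 0.19, unadjusted p = 0.0372, or 0.05 with TKO replicate 1). Without TKO replicate 1 neither gene overlapped between genotypes. Astrocytes, where both genes were highest, made up 1.90 and 2.91% of the nuclei of TKO replicates 2 and 3, against 4.55, 3.91 and 2.95% in TWT replicates 1, 2 and 3, with 4.84% in TKO replicate 1. These shares did not overlap without TKO replicate 1. Within astrocytes the log2 fold changes were -0.57 for Slc1a3 and -0.22 for Slc1a2, and the part of the astrocyte share in the sums was not tested.

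With all 6 libraries, 0 members were called in any class (edgeR, adjusted p; 0% of all genes in each), but many estimates changed sign. In excitatory neurons 21 of 26 tested members were then positive, with a median log2 fold change of 0.59, against 0.07 over all genes, and 5 had an unadjusted p under 0.05 (4.54% of all genes). Positive members were 19 of 24 in inhibitory neurons (median 0.63), 19 of 23 in striatal projection neurons (0.46), 9 of 13 in astrocytes (0.52), 11 of 18 in oligodendrocytes (0.19), 11 of 14 in precursors (0.29), 4 of 10 in microglia (-0.23) and 22 of 28 over all nuclei (0.39). In these the members with an unadjusted p under 0.05 were 5 (5.49% of all genes), 4 (3.81%), 3 (8.11%), 4 (6.22%), 2 (6.34%), 1 (6.49%) and 4 (3.77%). NMDA receptor genes were positive in 5 of 5 in excitatory neurons with TKO replicate 1, and in 1 of 5 without it. Grid1 had a log2 fold change of 3.27 in excitatory neurons with TKO replicate 1, and 0.22 without it.

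The members differed in how far TKO replicate 1 departed from the other 5 libraries. The log2 ratio of its CPM to their mean, with 5 CPM added to both, ran in excitatory neurons from -1.03 for Slc17a7, which has 6802 intronic bases in GENCODE M21, to 4.41 for Grid1, which has 757310. Grm7 (4.10, 915764 intronic bases), Grm8 (3.90), Grik2 (3.52) and Grm3 (3.44) were high as well, Grin2a was at 1.58 (409730) and Gria2 at -0.59 (105838). Across the 25 members measured, Spearman's rho between the ratio and intronic bases was 0.86 and Pearson's r, on the log10 of intronic bases, was 0.82. Genes are not independent replicates, and all ratios share 1 library. The rho was between 0.75 and 0.84 in the other 6 classes. Among all 11495 genes measured in excitatory neurons, the median ratio was -0.72 in the fifth with the fewest intronic bases and 1.33 in the fifth with the most, so the members shared this with other genes. No source used here states for any library if intronic reads were counted, and the part of the software version in these ratios was not tested.

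**Figure D5:**
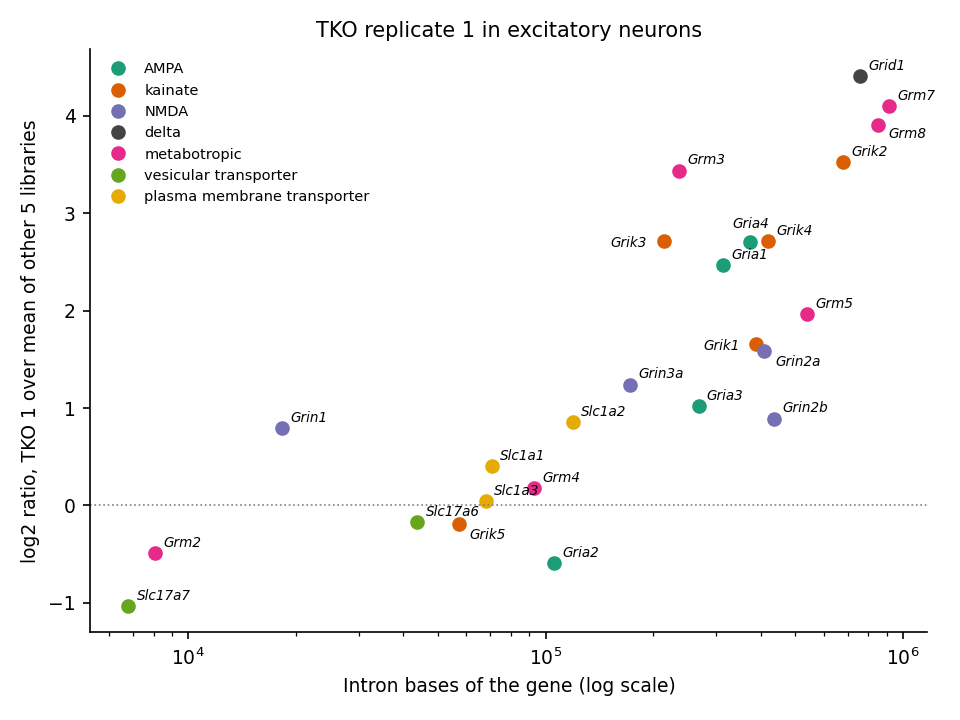
TKO replicate 1 against the other 5 libraries in excitatory neurons, by intron content. The horizontal axis is the gene's intronic bases on a log scale, the vertical axis the log2 ratio of CPM in TKO replicate 1 to the mean of the other 5 libraries, and each point is 1 of 25 members. The points climb from -1.03 for Slc17a7 to 4.41 for Grid1.

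Genes that work with the receptors gave no call either. The lists of these partners were chosen with earlier results of these data known. Of 14 auxiliary receptor subunit genes tested in excitatory neurons, 0 were called (edgeR, 0% of all genes), 0 had an unadjusted p under 0.05, and 8 were positive (median log2 fold change 0.07). Of 19 tested postsynaptic scaffold genes 0 were called and 11 were positive (0.07), and of 10 tested genes of glutamate and glutamine metabolism 0 were called and 5 were positive (-0.01). The smallest unadjusted p-values belonged to Gsg1l, an AMPA receptor auxiliary subunit (0.42 ± 0.25, unadjusted p = 0.128), and Cacng2, which encodes stargazin (-0.30 ± 0.20, unadjusted p = 0.164). Among scaffolds they belonged to Dlgap4 (0.34 ± 0.19, unadjusted p = 0.106) and Dlg3, which encodes SAP102 (0.39 ± 0.22, unadjusted p = 0.115), all in excitatory neurons. Among metabolism genes in astrocytes they belonged to Slc7a11, the cystine-glutamate exchanger (-0.43 ± 0.28, unadjusted p = 0.146), and Got1, an aspartate aminotransferase (0.75 ± 0.50, unadjusted p = 0.15). With TKO replicate 1, 12 of 14 auxiliary subunit genes (median 0.60) and 17 of 19 scaffold genes (0.50) were positive in excitatory neurons.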

How the data were processed

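The authors deposited 10x Genomics 3′ UMI counts per gene and nucleus, made with Cell Ranger 7.0.0 for TKO replicate 1 and 6.1.2 for the other 5 libraries, per the file headers. Per the submitters' processing notes the build was mm10 and Seurat was used; the sources used here do not state if intronic reads were counted. The replicates were numbered in accession order, and p-values measure the spread between mice.

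Nuclei had at least 200 genes and at most 5% mitochondrial UMIs, and 1273 barcodes that Scrublet called doublets at an expected rate of 6% (2.6 to 5.28% of each library) were removed. After normalization in scanpy 1.11.5, 2000 variable genes other than the members, 30 principal components, 15 neighbours and Leiden resolution 1 (leidenalg 0.10.2) gave 28 clusters. A cluster of at least 20 nuclei was named for the class with the largest share of markers past a log2 fold of 0.8. At least 3 such markers were needed, 1 of them among its top 50 genes. It stayed unnamed where another class had as many markers among its top 10 genes, where a neuron cluster had a gene of another brain region there, or where its depth was low with no own marker there. These naming thresholds were set after the data had been seen, and a difference from the study's own cell types may come from the rebuilt names. Unnamed nuclei were 13.6 to 33.7% of each library.

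Counts were summed per class and library and fitted with edgeR 4.0.16 (TMM, filterByExpr, glmQLFit, R 4.3.3), with DESeq2 1.42.0 as an alternative, and the fit was tested on simulated counts. Tests are two-sided, and adjusted p-values are Benjamini-Hochberg over all genes tested. Displayed CPM use TMM effective sizes of the 5 libraries. Groups were compared for overlap for genes with at least 10 UMIs in a class. Of gene IDs, 32235 of 32285 matched GENCODE M21. The members and gene lists were chosen with earlier results of these data known. Values by library are given for members called in a class, otherwise for the 3 with the smallest p, and for the member of each family with the highest CPM in any class; partner lists name the 2 smallest p. Members named for groups that did not overlap, and cluster results, were chosen after their values were seen.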

Additional observations from a re-analysis of the deposited data

Results flagged for a closer look

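Grm3 differed in direction between classes without TKO replicate 1. The log2 ratio of TKO to TWT mean CPM was 0.75 in inhibitory neurons and -0.62 in astrocytes, a difference of 1.37, and 0.59 in striatal projection neurons, a difference of 1.20 from astrocytes. In each class both TKO libraries lay on 1 side of all TWT libraries, and the difference itself was not tested. TKO replicate 1 was the highest library in all 3 classes. Without it, Grm3 overlapped between genotypes in excitatory neurons and in oligodendrocytes, the class with its highest mean. The 3 metabotropic genes tested in oligodendrocytes, Grm3 among them, had log2 fold changes from -0.13 to 0.18.

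Several members were higher in clusters that received no class name than in any named class, and these clusters enter no comparison by class. Their CPM use total UMIs without TMM scaling, over those of the 5 libraries with at least 20 nuclei, so the scale differs from that of the class means. The Zic1 and Calb2 cluster held 165 and 41 nuclei in TKO replicates 2 and 3, against 171, 1 and 24 in TWT replicates 1, 2 and 3. In a cluster led by Zic1 and Calb2, mean CPM was 748 for Gria1, 557 for Gria4, 433 for Grik2, 166 for Grin2d and 87.4 for Grm2. In a cluster led by Ntng1, Scube1 and Cdhr1 it was 1271 for Slc17a7, 286 for Grm7 and 221 for Grm8. In a cluster led by Lgr5, Pax6 and Vipr2 it was 58.5 for Grm4, and in a cluster led by Rmst, Ecel1 and Baiap3 it was 68.1 for Slc17a6.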

How the results depend on the processing

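No member was called under any of 125 alternative fits, which changed the size factors, the test (DESeq2, not run for the tests between classes), the filter on low counts, the mitochondrial limit (10%), doublet removal, the naming of nuclei (at least 3 markers of a class, not applied over all nuclei), the clusters used, or left out 1 library. The smallest adjusted p of any member was 0.168 (Grin2a in microglia), and 0.0873 without the filter on low counts. With TKO replicate 1, 101 of 204 log2 fold changes moved by more than their SE and 61 changed sign. RLE size factors changed 1 sign of 207, DESeq2 2 of 159, no filter 5 of 207, the 10% limit 19 of 205, keeping doublets 15 of 206, marker naming 28 of 178, and leaving out 1 library 173 of 1023 (a lone TKO library was then assumed to vary like the TWT libraries). Fits within single clusters, which were chosen after the data had been seen, changed between 1 sign of 19 (the Ccn2 cluster) and 11 of 22 (the Ndst4 cluster, where 13 moved by more than their SE). The 5 microglial members with an unadjusted p under 0.05 (5.64% of all genes) became 1 of 10 tested at the 10% limit (4.78% of all genes) and 3 of 11 with marker naming (4.92%). Counts of all genes called were 47 without the filter in striatal projection neurons, against 0 with it, 8 in microglia, against 4, and 30 in oligodendrocyte precursors without TKO replicate 3, against 5. The causes were not tested. No paired analysis was possible because the labels give no replicate numbers. Microglia (103272 to 210200 UMIs) and astrocytes (121460 to 301396) limit what could be detected.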
